A study of Mus musculus with 11 samples.

Results

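The genes described here are 10 members of the Notch pathway: the ligands Jag1, Jag2, Dll1 and Dll4, and the target genes Hes1, Hey1, Hey2, Heyl, Nrarp and Nrip2. They were taken by symbol, and all 10 were found among the 32287 genes of the deposited count tables. Cerebrovascular cells of 11 mice were measured by droplet single-cell RNA sequencing, 1 library per mouse. The mice were 6 or 9 months old, of both sexes and untreated, and the labels date 4 batches. The CADASIL group, R182C-TgN3, comprised 6 mice and carried human NOTCH3 with the R182C variant as a transgene (3 mice at 6 months and 3 at 9 months, 4 female and 2 male). The control group, WT-TgN3, comprised 5 mice with a wild-type human NOTCH3 transgene (3 at 6 months and 2 at 9 months, 3 female and 2 male). Both groups therefore carried human NOTCH3 beside the mouse's own Notch3, and a comparison of genotypes is not one of transgene against no transgene. The level of human NOTCH3 RNA in mural cells differed between the lines, as given with the genotype comparison, so the variant and the amount of transgene RNA cannot be told apart. Vessel fragments were captured with CD31 antibodies, which bind endothelium, and the other cell types are those that came along. Batch 2 held 1 R182C-TgN3 mouse alone, and the other batches held equal numbers of both genotypes.

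Notch receptors are read by ligands on a neighbouring cell. Binding lets the receptor be cut, and the freed intracellular part enters the nucleus and, with the DNA-binding protein RBPJ, switches on target genes. In brain vessels endothelial cells (EC) carry several ligands, and NOTCH3 is known as the receptor of smooth muscle cells (SMC) and pericytes (PC). CADASIL is an inherited small vessel disease caused by NOTCH3 variants, so the question of the comparison was whether expression of the targets followed the mutant receptor.

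Cells were assigned to types by sets of marker genes that included no ligand, target or receptor of the pathway. The gates held 3597 arterial EC, 18634 capillary EC, 3160 venous EC, 2093 SMC, 597 PC and 13805 microglia, 41886 cells in all. Every mouse had at least 20 cells in each gate, with 62 to 345 SMC and 21 to 141 PC per mouse. Unique molecular identifiers (UMIs, counted molecules) were summed per mouse and gate, and levels are given as CPM (counts-per-million of that sum). The sums ranged from 463911 to 3546358 UMIs in SMC and from 65245 to 462069 in PC, so that 1 molecule weighed more in PC. Markers kept out of the gates were checked. Lmod1, Smtn and Mylk were highest in SMC, Rgs5, Pdgfrb and Cspg4 in PC, Gja5, Efnb2 and Sox17 in arterial EC, and Csf1r, C1qa, Aif1 and Trem2 in microglia. Of the markers checked, the exception was Ivns1abp, checked for capillary EC and highest in microglia. The libraries shared 966 of 65086 barcode sequences, with up to 350 in 1 pair of libraries, and 43 SMC and 8 PC had such a barcode. No member's genotype call differed without these cells.

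The members lie on 8 mouse chromosomes and are protein-coding genes. On the mm10 build, by the GENCODE vM21 annotation, the ligand genes are Jag1 at chr2:137081456-137116644 on the reverse strand, Dll4 at chr2:119325784-119335962 on the forward strand, Jag2 at chr12:112907819-112929776 on the reverse strand and Dll1 at chr17:15367354-15376872 on the reverse strand. The target genes are Hes1 at chr16:30064384-30067796, Heyl at chr4:123233556-123249875, Nrarp at chr2:25180758-25183339 and Nrip2 at chr6:128399296-128416427, which lie on the forward strand, and Hey1 at chr3:8663359-8667256 and Hey2 at chr10:30832359-30842801, which lie on the reverse strand.

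Promoter sequences from RefSeq (build GRCm38.p6, from 250 bases before to 50 bases after a gene's start) were matched for 6 of the 10 members: Jag1, Jag2, Dll1, Dll4, Hey2 and Nrarp. No entry was matched for Hes1, Hey1, Heyl and Nrip2. The 3 shown are of Hey2 and Nrarp, the targets that were matched, and of Dll4, whose level fell from arterial to venous EC. Capitals mark the letters TGGGAA on either strand, the core to which RBPJ binds. The windows are chr10:30842734-30843033 (reverse strand) for Hey2, chr2:25180508-25180807 (forward strand) for Nrarp and chr2:119325534-119325833 (forward strand) for Dll4, each written 5′ to 3′ in the direction of transcription.
Hey2: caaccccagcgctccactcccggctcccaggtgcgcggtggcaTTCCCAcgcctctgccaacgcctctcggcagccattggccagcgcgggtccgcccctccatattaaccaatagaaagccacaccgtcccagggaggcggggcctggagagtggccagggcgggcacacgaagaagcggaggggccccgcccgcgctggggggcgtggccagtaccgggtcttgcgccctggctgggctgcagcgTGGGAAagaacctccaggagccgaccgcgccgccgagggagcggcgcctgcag
Nrarp: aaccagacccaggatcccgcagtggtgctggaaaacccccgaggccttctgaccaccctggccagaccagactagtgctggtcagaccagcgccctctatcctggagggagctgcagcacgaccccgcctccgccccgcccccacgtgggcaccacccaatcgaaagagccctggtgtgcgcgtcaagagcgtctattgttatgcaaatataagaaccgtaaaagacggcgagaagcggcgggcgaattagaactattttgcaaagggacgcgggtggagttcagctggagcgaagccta
Dll4: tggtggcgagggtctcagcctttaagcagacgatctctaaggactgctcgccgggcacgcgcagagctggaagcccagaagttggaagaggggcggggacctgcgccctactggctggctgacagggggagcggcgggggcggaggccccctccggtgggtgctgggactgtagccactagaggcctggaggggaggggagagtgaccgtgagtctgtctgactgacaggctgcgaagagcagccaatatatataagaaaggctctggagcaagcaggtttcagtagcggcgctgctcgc
The Hey2 window held 2 matches, beginning 207 and 3 bases before the start, and both were part of the longer GTGGGAA. Among the 7 windows of the members (Dll1 has 2) it was the 1 window with a match, and GTGAGAA was found in none of them. Of all 32851 windows, 25.6% held TGGGAA, 6.38% GTGGGAA and 4.59% GTGAGAA on either strand.

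Ligands were highest in arterial EC, except Dll1, which was highest in venous EC. Jag1, a ligand that arteries present to the muscle around them, averaged 204 ± 31.6 CPM (SD, n = 11 mice) in arterial EC, against 131 ± 22.3 in SMC, 104 ± 28.7 in PC, 41.8 ± 8.54 in venous EC and 33.4 ± 3.11 in capillary EC, and 1.56 ± 0.757 in microglia. Each step of this order differed within mice (2-sided exact sign-flip permutation test, largest adjusted p = 0.0268 over the 5 steps). Jag1 was thus present in mural cells as well as in endothelium. Its SMC and PC levels were 64.3% and 50.9% of its arterial level. The summed endothelial gate markers were at 1.39% and 2.66% of their capillary level, but cells past both gates had been left out, which lowers such sums. Kdr, Tek and Slco1a4, endothelial markers kept out of the gates, averaged 6.37, 11.5 and 23.5 CPM in SMC. They averaged 18.2, 15.5 and 32.5 CPM in PC, against 173, 653 and 998 in arterial EC.

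Jag2 and Dll4 fell in steps along the endothelium. Jag2 averaged 351 ± 29.8 CPM in arterial, 103 ± 9.54 in capillary and 51.3 ± 10.3 in venous EC, with no overlap in any mouse between the arterial and the other EC sums. Dll4, the main Delta-type ligand of arteries and sprouting vessels, averaged 143 ± 23.4 CPM in arterial, 58.2 ± 10.8 in capillary and 10.5 ± 2.60 in venous EC. Both were low outside the endothelium. Jag2 was at 10.9 ± 7.25 CPM in SMC and at 2.32 ± 4.22 in PC, where 8 of 11 mice had no UMI. Dll4 was at 2.22 ± 1.76 CPM in SMC and at 10.6 ± 11.6 in PC, with 18 UMIs in all PC and none in 5 mice, and its PC and venous EC levels were not separated (adjusted p = 0.132, exact sign-flip test; the mean CPM was higher in PC and the mean log2 difference lower, at -1.17).

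Dll1 ran the other way. It averaged 18.4 ± 4.37 CPM in venous EC, 5.70 ± 1.72 in arterial EC and 3.69 ± 1.15 in capillary EC, and the venous level was the higher of the first 2 in 11 of 11 mice (exact sign-flip test, adjusted p = 0.00244, the smallest found among the 50 neighbour pairs). In SMC it was at 2.00 ± 1.32 CPM, and in PC 2 UMIs were counted over all mice. In microglia all 4 ligands were low, from 0.602 ± 0.268 CPM for Dll1 to 5.31 ± 1.33 for Jag2.

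The targets fell into different patterns. Heyl, a transcriptional repressor of the Hey family, was highest in mural cells, with 256 ± 27.8 CPM in PC and 145 ± 21.4 in SMC, and its highest mean in the others was 1.93 ± 1.72, in arterial EC. Hey2, another Hey family repressor, was at 162 ± 38.1 CPM in PC and 137 ± 15.9 in SMC and the difference between them did not pass (adjusted p = 0.0884, exact sign-flip test), and it was 13.7 ± 4.14 in arterial EC and 1.43 ± 0.417 in capillary EC. Nrip2, a nuclear receptor-interacting protein, was an SMC gene here, at 169 ± 19.4 CPM against 30.9 ± 21.4 in PC, and it was higher in SMC in 11 of 11 mice. Those 3 genes had at most 0.435 CPM on average in microglia.

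Hey1 was the endothelial member of the Hey family. It averaged 109 ± 21.2 CPM in arterial EC, 21.5 ± 4.76 in capillary EC and 1.65 ± 1.33 in venous EC, and it stood at 2.24 ± 1.05 in SMC and 4.49 ± 5.02 in PC, the latter from 11 UMIs in all. Nrarp, a feedback inhibitor that binds the receptor's intracellular part, was present in both compartments, at 88.5 ± 14.3 CPM in SMC, 68.4 ± 21.3 in PC and 47.3 ± 13.7 in arterial EC, against 12.98 ± 3.36 in capillary and 9.62 ± 4.01 in venous EC. Hes1, a repressor with inputs beside Notch, was broad: it averaged 460 ± 107 CPM in SMC, between 234 ± 49.2 and 300 ± 60.4 in PC and the 3 EC gates, and 36.3 ± 14.2 in microglia. Capillary EC, venous EC, PC and arterial EC followed SMC in the order of Hes1, and no neighbours among these gates differed beyond their spread (adjusted p from 0.149 to 0.563, exact sign-flip test). Of the 50 neighbour pairs over the 10 genes, 33 differed at an adjusted p under 0.05.

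**Figure D1:**
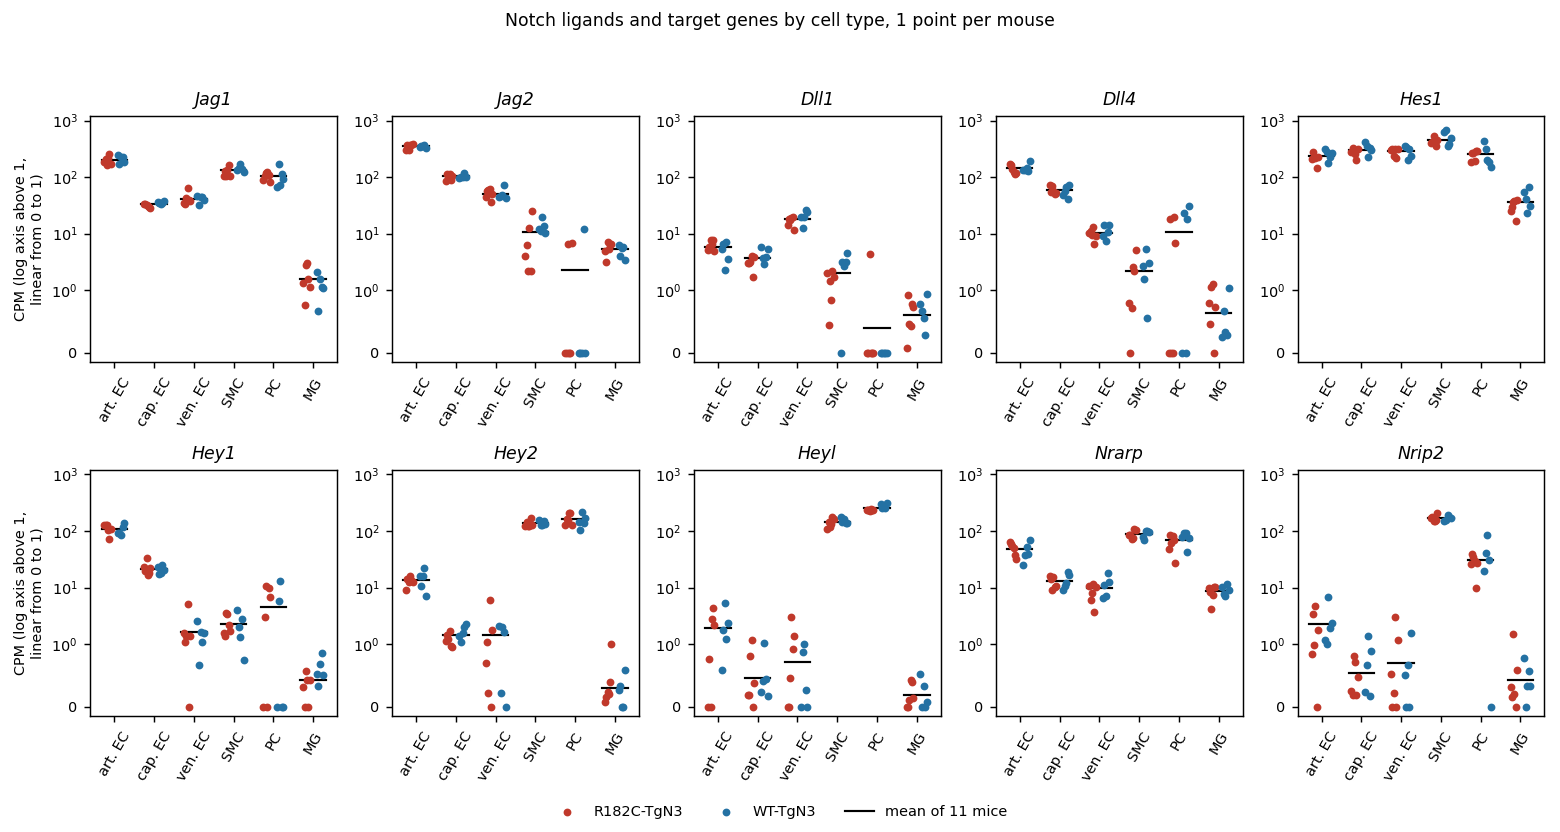
Level of each ligand and target (CPM of UMIs summed per mouse and gate, linear from 0 to 1 and on a log axis above) in arterial, capillary and venous EC, SMC, PC and microglia (MG). Points are mice (red R182C-TgN3, blue WT-TgN3) and bars the mean of 11 mice. Heyl, Hey2 and Nrip2 rise in the mural gates, Hey1, Jag2 and Dll4 in arterial EC and Dll1 in venous EC. The genotypes lie over each other except for Heyl in PC, whose difference did not pass (adjusted p = 0.966, edgeR).

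When every cell was thinned to 2000 UMIs, Heyl was detected in 37.9% of PC and 22.7% of SMC against 0.0271% of microglia, which served as the background. Hey2 was detected in 26.8% of PC and 23.1% of SMC against 0.0489%, and Nrip2 in 27.8% of SMC and 4.85% of PC against 0.105%. Hey1 was found in 19.0% of arterial EC against 0.0746% of microglia. The unthinned shares for Heyl were 51.8% of PC, 58.7% of SMC and 0.0797% of microglia, at median depths of 3195, 8038 and 5069 UMIs. Thinning left out the shallower cells and kept 495 of 597 PC, 2047 of 2093 SMC and 11969 of 13805 microglia.

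Arterial EC differed from capillary EC of the same mice in all 10 members, 9 higher and 1 lower (edgeR quasi-likelihood test with mouse as a block and Benjamini-Hochberg adjustment). Of all 13300 genes tested, 57.9% passed in either direction and 28.6% were higher and 29.2% lower. Hey2 had the largest log2 fold change, 3.20 (SE 0.17, adjusted p = 3.03e-14), followed by Jag1 with 2.58 (SE 0.06, adjusted p = 2.02e-21) and Hey1 with 2.38 (SE 0.07, adjusted p = 2.71e-19). Nrarp rose by 1.87, Jag2 by 1.78, Dll4 by 1.32 and Dll1 by 0.65 on the log2 scale. Hes1 alone was lower, with a log2 fold change of -0.35 (SE 0.04, adjusted p = 7.82e-09).

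Heyl and Nrip2 also passed, with log2 fold changes of 1.86 (SE 0.46) and 1.96 (SE 0.35), but at levels of 1.33% and 1.35% of those in SMC. Markers of SMC moved with them: all 8 SMC gate markers had UMIs in arterial EC, where their sum was 0.638% of its level in SMC, against 0.110% in capillary EC, and mouse Notch3 was at 2.35% and 0.467% of its SMC level. The arterial sum of these markers ran from 55.0 to 386 CPM in the CADASIL mice and from 84.4 to 616 in the control mice. Their part in the Heyl and Nrip2 differences was not tested. Hey2 in arterial EC was at 10.0% of its SMC level.

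Venous EC differed from capillary EC in 6 of the 8 members tested, 2 higher and 4 lower, where 55.2% of 13538 genes passed, 28% higher and 27.2% lower. Dll1 rose by 2.30 on the log2 scale (SE 0.13, adjusted p = 1.30e-12, edgeR) and Jag1 by 0.33 (SE 0.08, adjusted p = 0.00134). Hey1 fell by 3.67 (SE 0.20, adjusted p = 3.24e-13), Dll4 by 2.46, Jag2 by 0.97 and Nrarp by 0.35. Hes1 had a log2 fold change of -0.04 with a 95% interval from -0.14 to 0.06. For Hey2 it was -0.04, from -0.76 to 0.68, on 145 UMIs in capillary and 55 in venous EC. Heyl and Nrip2 were too low to be tested.

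SMC differed from PC in 6 of the 7 members tested, 4 higher and 2 lower, against 50.3% of 9191 genes, 26.7% higher and 23.6% lower. Nrip2 was higher in SMC by a log2 fold change of 2.68 (SE 0.17, adjusted p = 2.16e-15, edgeR), Hes1 by 1.22 (SE 0.11, adjusted p = 1.25e-11), Nrarp by 0.72 (SE 0.15, adjusted p = 0.000206) and Jag1 by 0.63 (SE 0.13, adjusted p = 6.24e-05). Heyl was lower in SMC, with -0.46 (SE 0.10, adjusted p = 0.000142), as was Dll4, with -2.02 (SE 0.69, adjusted p = 0.0141), which did not pass without R182C-TgN3 mouse 2 (adjusted p = 0.0802). The 8 endothelial markers summed to 481 CPM in PC and 252 in SMC on average, all 8 with a UMI in both gates (PC 315 to 598 in R182C-TgN3 and 406 to 874 in WT-TgN3 mice, SMC 75.4 to 483 and 145 to 498). Their part in the Dll4 difference was not tested. Hey2 gave 0.14, with a 95% interval from -0.10 to 0.37. Scaling mattered here: without the TMM scaling of the fit the median over all genes moved by -0.37 on the log2 scale, and the direction of Hey2 turned: on the log2 CPM scale it was higher in PC by 0.21, which did not pass. On that scale Heyl was higher in PC by 0.82, and Nrarp, higher in SMC by 0.43, did not pass the exact sign-flip test (adjusted p = 0.0732). Over the same pair of gates human NOTCH3 was lower in SMC by a log2 fold change of -2.25 and mouse Notch3 by -0.53.

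**Figure D2:**
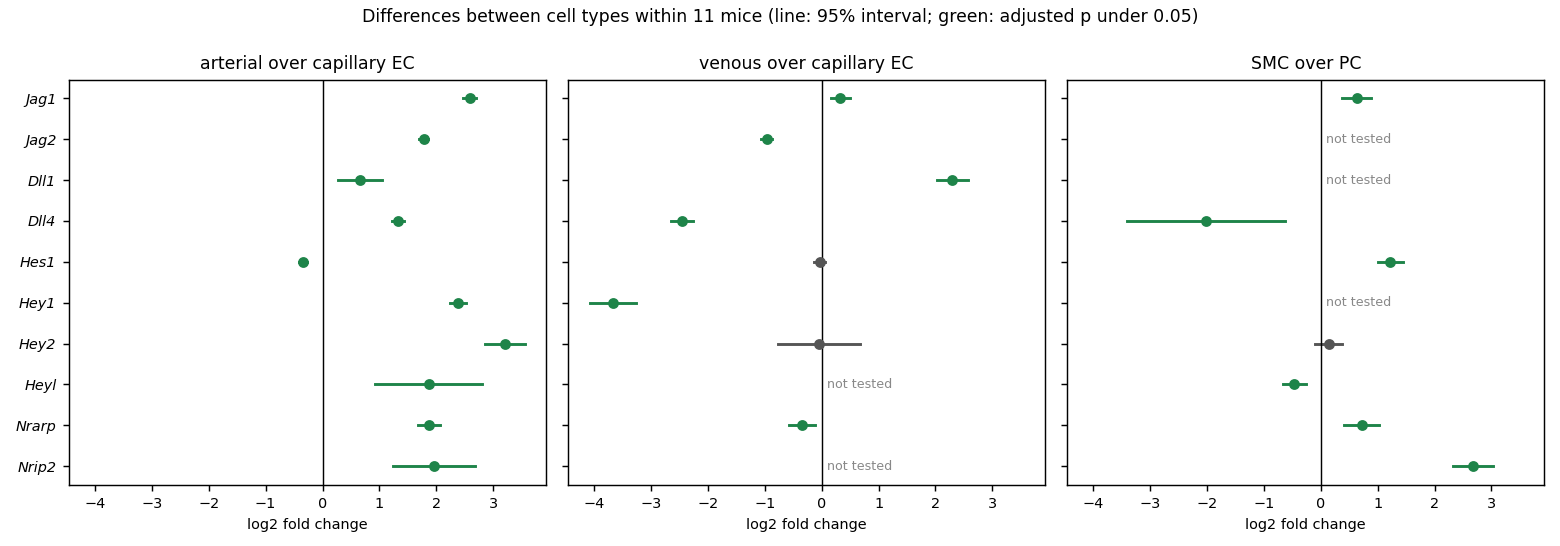
Log2 fold change of each ligand and target between 2 cell types of the same 11 mice, with its 95% interval. Green marks an adjusted p under 0.05; arterial over capillary EC is positive in 9 of 10 genes, venous over capillary EC splits Dll1 from Hey1 and Dll4, and SMC over PC splits Nrip2 from Heyl.

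Other genes of the pathway were counted from a list of 47 receptors, ligand modifiers, proteases, cofactors and further targets. In arterial against capillary EC 15 of the 40 tested were higher and 8 lower, where 28.6% of all genes tested were higher and 29.2% lower. In venous against capillary EC 12 of 40 were higher and 7 lower (28% and 27.2% of all genes). In SMC against PC 5 of 29 were higher and 13 lower (26.7% and 23.6% of all genes). Among the larger differences between arterial and capillary EC in that list, beside mouse Notch3 and human NOTCH3, were those of the receptors Notch4 (1.33) and Notch1 (0.74), as log2 fold changes. In venous EC the ubiquitin ligase gene Neurl3 (2.37) and Lfng, a glycosyltransferase that modifies Notch receptors (1.24), led the list, followed by the presenilin gene Psen2 (1.04). Dtx4, of the Deltex family, was the most different between SMC and PC, with a log2 fold change of -4.46.

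Human NOTCH3, the transgene, separated the genotypes in mural cells. In SMC it was between 191 and 358 CPM in the 6 R182C-TgN3 mice, with a median of 228, and at 13.3, 61.7, 15.9, 68.2 and 36.6 CPM in WT-TgN3 mice 1 to 5. Its log2 fold change was 2.48 (SE 0.28, adjusted p = 0.000301, edgeR) in SMC and 1.62 (SE 0.21, adjusted p = 0.000269) in PC, and neither range overlapped. Mouse Notch3 gave -0.08 in SMC and 0.08 in PC, and neither passed.

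None of the 7 members tested in SMC passed between genotypes (edgeR, lowest unadjusted p = 0.102), where 1 of 8873 genes, human NOTCH3 itself, passed (0.0113%) and 200 genes had an unadjusted p under 0.05. DESeq2 also called 1 gene and no member. Heyl lay between 109 and 175 CPM in R182C-TgN3 mice, with a median of 138, and at 175, 143, 162, 141 and 140 CPM in the WT-TgN3 mice. The genotypes overlapped, and the log2 fold change was -0.10 with a 95% interval from -0.37 to 0.16. Nrip2 lay between 148 and 206 CPM, with a median of 166, against 148, 156, 195, 179 and 169 CPM in WT-TgN3 mice, and its log2 fold change was 0.03 (-0.21 to 0.26). The genotypes overlapped for Nrip2 too.

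Hey2 was between 124 and 172 CPM in SMC of R182C-TgN3 mice, with a median of 126, and at 154, 126, 129, 150 and 132 CPM in WT-TgN3 mice. Its log2 fold change was -0.01 (-0.24 to 0.21). Nrarp was between 72.9 and 110 CPM, with a median of 85.8, against 76.9, 68.1, 98.2, 99.0 and 96.4 CPM, with a log2 fold change of 0.03 (-0.23 to 0.30). The ranges of these genes overlapped almost fully. Hes1 was the most variable in control mice, at 616, 674, 354, 378 and 492 CPM, while the R182C-TgN3 mice lay between 349 and 525 with a median of 411, and its log2 fold change was -0.22 (-0.59 to 0.14). It was -0.05 without WT-TgN3 mouse 2, -0.15 without mouse 1 and -0.33 without mouse 3 of that line. Over these 5 targets the intervals thus reached from -0.59 to 0.30. The interval of human NOTCH3, which gave fewer UMIs in these cells than mouse Notch3, ran from 1.89 to 3.07. Hey1 was at 2.29 ± 0.958 CPM (SD, n = 6) and 2.17 ± 1.27 (n = 5) and was too low to be tested.

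The ligands of SMC did not pass either. Jag1 lay between 103 and 164 CPM in R182C-TgN3 mice, with a median of 116, and at 134, 143, 169, 142 and 123 CPM in WT-TgN3 mice, with a log2 fold change of -0.21 (-0.47 to 0.05). Jag2 lay between 2.14 and 25.4 CPM against 11.9, 11.2, 19.9, 13.5 and 10.5, with a log2 fold change of -0.56 (-1.46 to 0.34). Jag2 had 187 UMIs in SMC of all mice, and its interval was the widest of the 7. The log2 fold change of Jag2 was -1.18 without R182C-TgN3 mouse 6, -0.33 without mouse 1 and -0.36 without mouse 3 of that line. Dll1 and Dll4, with 39 and 29 UMIs, were not tested.

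Within batches, human NOTCH3 in SMC was higher in R182C-TgN3 mice in each of batches 1, 3 and 4, with means of 216 against 52.4, 207 against 37.5, and 358 against 15.9 CPM. Heyl in the same batches was at 126 against 140, 153 against 159 and 160 against 162 CPM, and Nrip2 at 174 against 174, 154 against 152 and 206 against 195 CPM. Nrarp was at 85.8 against 97.7, 92.3 against 72.5 and 106 against 98.2 CPM. Hes1 changed direction between batches, at 407 against 435, 379 against 645 and 448 against 354 CPM, and so did Jag1, at 115 against 132, 148 against 138 and 106 against 169 CPM. Hey2 was at 133 against 141, 149 against 140 and 128 against 129 CPM, so that Nrarp and Hey2 changed direction as well. Batches 1 and 3 held 2 mice of each genotype and batch 4 held 1 of each, and batch 2 had no control.

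In PC none of the 5 members tested passed, where 2 of 3059 genes (0.0654%) did, 147 had an unadjusted p under 0.05 and DESeq2 called 2. Beside human NOTCH3 the gene called was Sncg, a synuclein gene named here after its value was seen, with a log2 fold change of -1.98. Heyl was the one member whose genotypes did not overlap. The share of all PC genes without overlap is not given here, so this separation is a description and not a result about Heyl. It was between 227 and 248 CPM in R182C-TgN3 mice, with a median of 234, and at 300, 257, 279, 256 and 307 CPM in WT-TgN3 mice, so that every control mouse was the higher. Its log2 fold change was -0.23 (SE 0.14, 95% interval -0.53 to 0.06, unadjusted p = 0.117, adjusted p = 0.966, edgeR). The values rest on 20 to 105 UMIs per mouse, for which counting alone gives an SD of 35.8 CPM for the CADASIL and 48.7 CPM for the control mice, while the SDs between mice were 7.26 and 23.6. With the stricter gate, where WT-TgN3 mouse 5 had 19 cells and was left out, the log2 fold change was -0.06. With the gate as reported it was -0.22 without that mouse, and from -0.26 to -0.21 with each mouse left out in turn. Within batches 1, 3 and 4 the log2 ratio of Heyl was -0.26, -0.19 and -0.26.

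Hes1, Hey2, Jag1 and Nrarp gave log2 fold changes of -0.07 (-0.54 to 0.40), 0.07 (-0.36 to 0.51), -0.04 (-0.55 to 0.47) and -0.28 (-0.87 to 0.32) in PC, and their genotypes overlapped. These intervals were wider than in SMC. Nrip2, at 27.6 ± 9.87 and 35.0 ± 31.4 CPM in the 2 genotypes, was too low in PC to be tested, as were Jag2, Dll1, Dll4 and Hey1. In simulated counts with the depth of these sums, 83% of genes changed 2-fold were recovered in SMC and 72% in PC, and 100% and 98% of those changed 4-fold. Many genes were changed at once in these simulations, which makes the adjusted threshold easier to pass than in the measured comparisons, where few genes passed. The shares therefore do not give the recovery of a single changed member, which was not simulated.

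**Figure D3:**
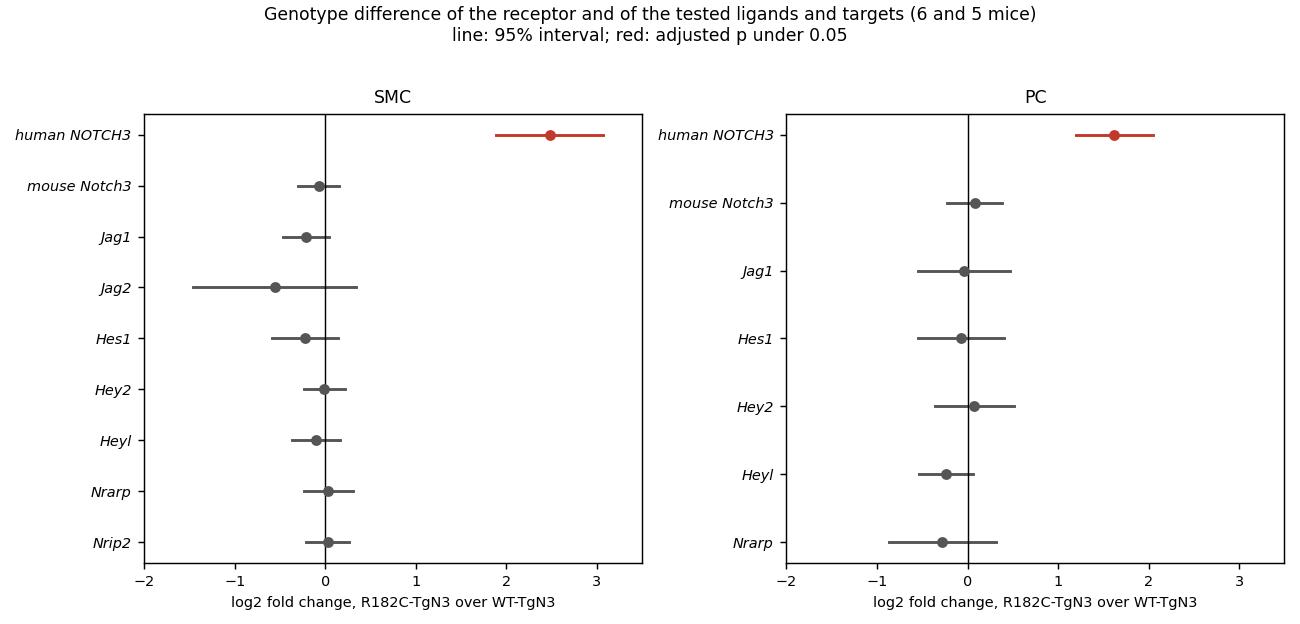
Log2 fold change of R182C-TgN3 over WT-TgN3 mice (6 and 5 mice) with its 95% interval, for human NOTCH3, mouse Notch3 and the members tested in SMC and PC. Human NOTCH3 (red, adjusted p under 0.05) lies at 2.48 and 1.62, while the interval of every ligand and target includes 0.

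Endothelial cells and microglia gave no genotype call for a member. In arterial EC 8 members were tested and 0 of 10191 genes passed (0%; 164 with an unadjusted p under 0.05, 0 by DESeq2). In capillary EC 8 members were tested with 0 of 11796 genes passing (0%; 244 and 1), in venous EC 6 members with 0 of 10652 (0%; 288 and 1), and in microglia 4 members with 0 of 10951 (0%; 105 and 0). The unadjusted p nearest to the threshold was that of Jag1 in capillary EC (0.0852), where R182C-TgN3 mice lay between 28.0 and 34.1 CPM, with a median of 31.7, and WT-TgN3 mice were at 36.9, 35.2, 33.6, 34.6 and 38.5 CPM. The genotypes overlapped in WT-TgN3 mouse 3 alone, and the log2 fold change was -0.14 (-0.30 to 0.02). Jag1 in arterial EC, the endothelium next to SMC, gave -0.06 (-0.30 to 0.18), Jag2 0.02 (-0.19 to 0.23) and Dll4 -0.03 (-0.30 to 0.23).

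The endothelial targets were spread likewise. In arterial EC Hey1 lay between 72.5 and 129 CPM in R182C-TgN3 mice, with a median of 119, and at 92.1, 93.7, 85.6, 116 and 139 CPM in WT-TgN3 mice. Both genotypes spanned most of that range, and the log2 fold change was 0.13 (-0.19 to 0.45). Nrarp gave 0.19 (-0.24 to 0.63) and Hey2 -0.15 (-0.66 to 0.37) there. Dll1 in venous EC lay between 11.7 and 19.3 CPM, with a median of 17.8, against 19.97, 12.5, 19.9, 26.0 and 23.9 CPM, with a log2 fold change of -0.25 (-0.64 to 0.13). The largest of the microglial values was that of Jag1, 0.42 (-0.39 to 1.23), from 113 UMIs in all, and Hes1 gave -0.39 (-0.90 to 0.12). With mice paired by age and label number as a replicate block, 1 gene passed in microglia in place of 0, and no member. In the pathway list, human NOTCH3 in SMC and in PC was the only gene called between genotypes in any of the 6 gates.

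Between the 6 R182C-TgN3 mice, the targets in SMC were set against the receptor, 12 relations in all. With human NOTCH3, Pearson's r was 0.71 for Nrip2 (Spearman's rho 0.26), 0.50 for Hes1 (0.77), 0.39 for Nrarp (0.14), 0.36 for Heyl (0.43), -0.16 for Hey1 (0.14) and -0.18 for Hey2 (0.09). None had an adjusted p under 0.05 (2-sided exact permutation test over 6 mice), with unadjusted p from 0.118 to 0.817 for r, adjusted p from 0.354 to 0.891, and unadjusted p from 0.103 to 0.919 for rho, adjusted p from 0.544 to 0.919. R182C-TgN3 mouse 6, with 358 CPM of human NOTCH3, lay far from the rest, and r for Nrip2 was -0.20 without it alone and 0.46 without it and the mouse next farthest from the median, so this relation rests on that mouse. With each mouse left out in turn r for Nrip2 ran from -0.20 to 0.90.

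With mouse Notch3, Hey2 had the highest r, 0.98 (rho 0.71, exact permutation p = 0.0139, adjusted p = 0.167). With each mouse left out in turn it ran from 0.86 to 0.99, and it was 0.35 without the 2 mice farthest from the median, so it rests on those mice together. Nrarp had r = 0.73 (rho 0.77), Heyl 0.70 (0.49), Nrip2 0.03 (0.43), Hey1 -0.42 (-0.60) and Hes1 -0.68 (-0.54), with adjusted p from 0.354 to 0.946 for r and from 0.544 to 0.629 for rho. Within batches at most 2 of these mice shared a batch, which gives no value.

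**Figure D4:**
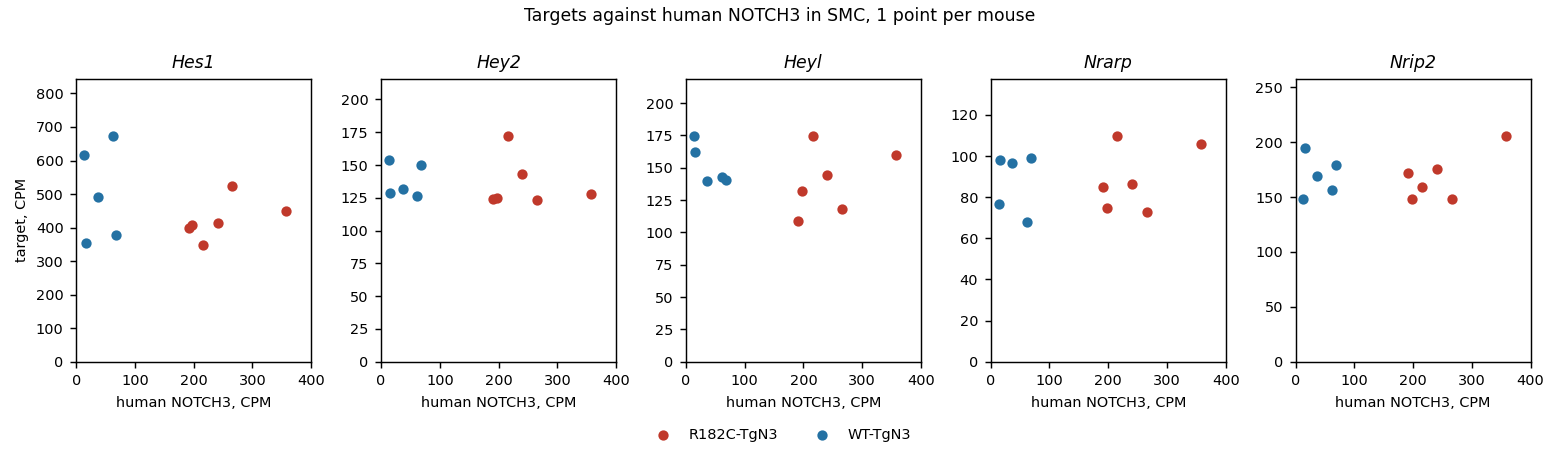
CPM of 5 targets in SMC (vertical axes, starting at 0) against CPM of human NOTCH3 (horizontal axis), 1 point per mouse, red R182C-TgN3 and blue WT-TgN3. The R182C-TgN3 mice lie at 191 CPM of NOTCH3 and above and the WT-TgN3 mice at 68.2 and below, while the heights of the 2 groups overlap for each target.

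Genes whose pattern was most like that of each member were found over the 66 sums of 11 mice and 6 gates, among 9652 genes of at least 10 CPM on average. These correlations are descriptions, since sums of 1 mouse share a library. Heyl was nearest to the sphingosine-1-phosphate receptor gene S1pr3 (r = 0.992), to Zic4 (0.992) and to Plekhg3 (0.991). Hey2 was nearest to the channel gene Trpc1 (0.979) and the guanylate cyclase gene Gucy1b1 (0.975), and Nrip2 to the Wnt receptor gene Fzd2 (0.966) and the growth factor gene Tgfb3 (0.961). Nrarp was nearest to the connexin gene Gja4 (0.938), and Hey1 to Mannr (0.914) and the lipoxygenase gene Alox12 (0.897). Dll1 was nearest to Arhgap28 (0.880), Jag1 to S100a11 (0.965), Jag2 to Mall (0.948), Dll4 to Myl12b (0.890) and Hes1 to Sh3bgrl (0.949). Among the members themselves Hey2 and Heyl were the closest pair (r = 0.943), followed by Hey2 and Nrarp (0.920), and Dll4 and Hey1 were the closest pair of a ligand and a target (0.828).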

How the data were processed

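Cerebrovascular cells of 11 mice were isolated with CD31 antibodies and sequenced as 10x Genomics libraries. Per the submitters' processing notes, the authors used Cell Ranger 7.0.0 and mm10, and the tables hold a row for human NOTCH3. The deposited values are raw UMI counts per gene and barcode, not normalized. How reads matching both human NOTCH3 and mouse Notch3 were counted is not given in the sources used here.

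Of 66658 barcodes, 61625 were kept (500 genes or more detected, mitochondrial share no higher than 10%). A cell passed a gate with UMIs of at least 3 of its markers and at least 25% of the reference score, the median score of cells with more than 50% of the markers. Of the kept barcodes, 3366 passed the gates of 2 classes and were left out as possible doublets, with no doublet caller run, and 1603 passed no gate. A cell past both mural gates was kept where 1 score was at least 2 times the other. Of 38613 EC, 11883 had no subtype, since none passed or the next scored over 50% of the first, and 5221 lay near that limit. These thresholds were set after seeing the counts. Between 17550806 and 64215050 UMIs were counted per library. Mice are replicates, numbered within genotype by accession, and all 5 control mice were kept, although the study left out 1 in microglia without naming it.

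Sums of counts per mouse and gate were tested with edgeR 4.0.16 in R 4.3.3 (filterByExpr, TMM, quasi-likelihood test, Benjamini-Hochberg over all genes, threshold 0.05), without ribosomal, mitochondrial, Gm and Rik genes in genotype comparisons. The main test was edgeR and DESeq2 1.42.0 an alternative. Cell types of 1 mouse were compared with mouse as a block. Neighbours in the order of levels were compared with exact sign-flip tests on log2(CPM + 1), adjusted over 50 pairs. Intervals are 95%. The fits were tested on simulated data. Mice were paired by age and label number, 5 pairs: deviations from genotype means correlated over 0.1 in all 5 pairs in microglia (0.140 to 0.413) and in at most 2 elsewhere. The mice of each pair also shared a batch, so these correlations take in batch as well, and pairing was not separated from batch. Named genes were the 10 members, receptors where a result turned on them, pathway genes past the threshold between genotypes or among the 5 largest between cell types, and up to 3 genes most like each member. A single pathway gene that this rule names is not reported here. Members and lists were chosen with earlier results of these data known. Alternatives were DESeq2, its size factors, no filter on low counts, all genes kept, batch as covariate, the replicate block, other gates, at least 1000 genes per cell, cells with shared barcodes left out and each mouse left out. Python 3.11.15 with numpy 2.4.6, scipy 1.17.1 and pandas 2.3.3 was used.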

Additional observations from a re-analysis of the deposited data

Results flagged for a closer look

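In 94 groups of 5 or 6 mice (each member and the NOTCH3 receptors, in each gate where they were tested between genotypes), 6 had 1 mouse far from the others by Dixon's criterion, which chance gives in about 1 of 20 groups. Jag1 in venous EC of R182C-TgN3 mouse 4 was at 63.0 CPM, where the other 5 mice lay between 33.8 and 43.1. That mouse also had 568 CPM of SMC markers in its venous EC, where the others lay between 20.4 and 168, and the part of those cells in its Jag1 level was not tested. WT-TgN3 mouse 4 had 120 CPM of Jag2 in capillary EC (others 98.0 to 102) and 72.1 in venous EC (others 43.0 to 48.2). WT-TgN3 mouse 5 had 191 CPM of Dll4 in arterial EC (others 128 to 144).

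In arterial EC of WT-TgN3 mouse 3, mouse Notch3 was at 66.5 CPM (others 2.93 to 6.60) and human NOTCH3 at 4.58 (others 0.587 to 1.23). The same sum held the most SMC markers of any mouse, 616 CPM, and the highest Heyl level in arterial EC, 5.35 CPM. Their part in the receptor values was not tested.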

How the results depend on the processing

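The 38 genotype fold changes of members stayed short of the threshold under all 789 combinations with an alternative, with adjusted p from 0.860 to 1, and 59 of them changed sign around 0. Human NOTCH3 passed in SMC and PC under all 42, with log2 fold changes from 1.46 to 2.73. Counts of genes called between genotypes moved as follows. With DESeq2, capillary EC and venous EC each had 1 in place of 0. With the replicate block, SMC had 2 in place of 1 and microglia 1 in place of 0, and the block changed no member's call. Mice with the same age and label number also shared a batch, so the block takes in differences between batches. PC had 59 in place of 2 with no filter on low counts, and 1 when ribosomal, mitochondrial, Gm and Rik genes were kept, with the stricter gate, with no doublet guard and with shared barcodes left out, an alternative chosen after seeing the data. With 1 mouse left out, PC had 1 to 3, SMC 1 to 2, venous EC 0 to 1 and the other gates 0. Without R182C-TgN3 mouse 4 SMC had 2 and venous EC 1, and the PC count was 1 without any of 9 mice. Between cell types, 440 of 443 member values kept their call: without the guard against doublets Heyl no longer passed between SMC and PC (-0.19, adjusted p = 0.051) and Hey2 did (0.50), and Dll4 failed without R182C-TgN3 mouse 2. Without that guard the order of Jag2 in microglia and PC reversed (-1.51), as did Dll4 in PC and venous EC (1.00), both log2 differences; in this gate cells with both endothelial and mural markers stay. Members called between SMC and PC were 5 to 7 with 1 mouse left out. The number of differing neighbour pairs was 29 to 34 with 1 mouse left out, 30 with the stricter gate and 36 without the guard, and none of the 12 relations with the receptor passed under any alternative, with adjusted p of at least 0.0667. The shallowest PC sum held 65245 UMIs, which limits the members of low level there. P-values measure the spread between these mice, and UMI intervals cover counting error only.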

Other observations

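Fenestrated EC, a class gated by Plvap and other markers with 1339 cells and at least 51 in each mouse, were in no comparison. They held 104 ± 16.9 CPM of Nrarp (SD, n = 11 mice), 128 ± 19.3 of Dll4 and 75.6 ± 15.4 of Jag2, beside 397 ± 96.5 of Hes1. Hey1 was at 14.5 ± 5.14 CPM, Jag1 at 14.5 ± 4.15, Dll1 at 15.6 ± 7.81 and Hey2 at 9.34 ± 4.97, and Heyl and Nrip2 were at 1.39 ± 2.13 and 0.528 ± 0.980. Nrarp was thus at a mean level between those of Dll4 and Jag2 in these cells, while in capillary EC it was at 12.98 ± 3.36. No test of this difference was run. Fibroblasts (105 cells) and perivascular macrophages (110 cells) were too few per mouse for a level, and over all mice 459 Hes1 UMIs were counted in the first and 2 in the second.

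SMC of the R182C-TgN3 mice were also split by whether a human NOTCH3 UMI was found, which gave 781 cells with and 269 without. Nrarp was at 102 ± 17.2 CPM (SD, n = 6) in cells with the transcript and 40.5 ± 14.1 in cells without, and was higher with it in 6 of 6 mice. Nrip2 was at 178 ± 23.6 against 130 ± 18.2 and Hes1 at 444 ± 60.4 against 338 ± 76.3, also in 6 of 6 mice, and mouse Notch3 was at 633 ± 77.3 against 431 ± 94.5. Heyl, at 143 ± 24.0 against 125 ± 36.3, was higher in 5 of 6, and Hey2, at 137 ± 19.6 against 133 ± 31.9, in 3 of 6. Jag1 was at 125 ± 26.8 against 111 ± 50.0 CPM, higher in 4 of 6. Hey1 was at 1.49 ± 1.30 against 4.79 ± 2.94 CPM, higher with the transcript in 2 of 6, and Jag2 and Dll4 were higher in 4 and 3 of 6. Dll1 was at 1.78 ± 0.872 against 0.221 ± 0.541 CPM, higher with the transcript in 6 of 6. Hey1, Jag2, Dll1 and Dll4 averaged under 10 CPM in both sets of cells, so their values rest on few UMIs. Of 8274 genes of at least 10 CPM, 4.40% were higher with the transcript in all 6 mice and 2.53% lower. Cells with the transcript were deeper, with median UMIs per mouse from 7586.5 to 10593 against 4876.5 to 8503, and the part of depth in these values was not tested. PC were split likewise, 367 with the transcript and 29 without, and not every mouse had PC without it. There Hes1 (249 against 344 CPM), Heyl (237 against 339) and Hey2 (162 against 169) were higher with it in 2 of 6 mice. Nrarp (65.7 against 20.2) and Nrip2 (28.9 against 12.3) were higher in 4 of 6, and Hey1 in 3 of 6. The splits use measured UMIs and are descriptions with no test, chosen after the main results were seen.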
